A study of Mus musculus with 14 samples.

Results

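The 9 genes described here encode the core of the junctional complex of the retinal pigment epithelium (RPE), the pigmented monolayer between the photoreceptors and the choroid. They form a list of tight and adherens junction genes, matched by symbol among the 42687 genes counted in the series and chosen with earlier results of these data known, and comprise the claudins Cldn1 and Cldn19, occludin (Ocln), the junctional adhesion molecule F11r (JAM-A), the scaffold Tjp1 (ZO-1), the cadherins Cdh1 (E-cadherin), Cdh2 (N-cadherin) and Cdh3 (P-cadherin), and Ctnnb1 (beta-catenin). RNA was sequenced from the RPE of 14 male C57BL/6J mice at 3 months of age, 1 library per mouse with both eyes pooled. KO mice were Best1-Cre+/-;Clic4f/f, in which the Best1 promoter drives Cre in RPE cells, so other cells of the sample keep Clic4. The WT set held 3 WT mice (C57BL6/J) and 3 KO mice, the Ctrl set 2 Ctrl mice (Clic4f/f, floxed alleles without Cre) and 2 KO mice, and the CreCtrl set 2 CreCtrl mice (Best1-Cre+/-, Cre without floxed alleles) and 2 KO mice. Each set has its own control genotype, so an effect of the control genotype and an effect of the set cannot be told apart.

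Tight junctions seal the space between RPE cells and form the outer blood-retinal barrier. Claudins, occludin and junctional adhesion molecules span the membrane, and ZO-1 ties them to actin. Below them, cadherins bind the cadherins of the neighbouring cell and are linked through beta-catenin and alpha-catenin to the cytoskeleton. P-cadherin is the main cadherin of mouse RPE, and E-cadherin is typical of surface epithelia such as cornea and conjunctiva.

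Libraries held 9828293 to 32384166 counted reads. Clic4 lay between 59.4 and 249 CPM (counts per library, scaled to a common library size) in the 7 control libraries and between 9.40 and 32.7 CPM in the 7 KO libraries, and every KO library was below every control library of its set. All 10 RPE markers were counted in all groups. Their summed level was 16700 to 23800 CPM in WT and 75700 to 84600 CPM in the KO libraries of that set, 48100 to 48300 against 73900 to 76200 CPM in the Ctrl set, and 51500 to 59300 against 73800 to 80100 CPM in the CreCtrl set. As higher in KO, 10 of them passed the test against WT, 0 against Ctrl (0 at an unadjusted p under 0.05, 0 by DESeq2) and 1 against CreCtrl (6 at an unadjusted p under 0.05, 6 by DESeq2). All 10 had a positive log2 fold change in each set. Fibroblast markers (10 genes) summed to 7460 to 7540 CPM in WT against 332 to 801 in KO, 1340 to 2460 against 257 to 415 in the Ctrl set, and 1400 to 2680 against 388 to 465 in the CreCtrl set. Of them 10, 0 (8 at an unadjusted p under 0.05, 6 by DESeq2) and 8 passed the edgeR test as lower in KO. Endothelial markers (10 genes) summed to 311 to 763 against 76.6 to 158 CPM, 127 to 140 against 35.8 to 54.0 CPM, and 285 to 529 against 52.3 to 61.2 CPM in the same order, with 9, 0 (7 and 6) and 8 lower in KO. Of 10 myeloid markers 9, 0 (0 and 0) and 8 passed as lower and 1, 0 and 0 as higher; of 10 rod markers 0 (0 and 0), 0 (0 and 0) and 10 as lower; of 7 pericyte and smooth muscle markers 3, 0 (4 and 3) and 3 as lower; and of 8 melanocyte and Schwann markers 3, 0 (3 and 4) and 3 as lower, with 1, 0 and 0 higher. Markers of a surface epithelium (8 genes, among them the corneal keratin Krt12) stood apart in the Ctrl set. They summed to 2320 to 12700 CPM in the Ctrl libraries against 4.54 to 12.5 CPM in the KO libraries of that set. In the WT set the ranges overlapped, at 16.6 to 1180 CPM in WT and 458 to 1020 CPM in KO, where Krt12 was at 0 in all 3 KO libraries, and in the CreCtrl set they were 5.08 to 44.2 and 2.19 to 170 CPM. By the edgeR test 0 of 7, 0 of 8 and 0 of 6 tested surface epithelium markers were called (0, 8 and 0 at an unadjusted p under 0.05, and 1, 8 and 0 by DESeq2). These marker sums were scaled over all 14 libraries. In bulk RNA, fewer cells of a type and less RNA per cell cannot be told apart.

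A gene was called changed when its adjusted p was under 0.05 in edgeR's quasi-likelihood test, fitted over all expressed genes of a set with Benjamini-Hochberg adjustment. Log2 fold changes are KO over control, and CPM are scaled by the trimmed mean of M-values (TMM) within a set. All 9 genes passed the filter on low counts in every comparison, and 8 of them were counted in all 14 libraries.

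In the KO against WT comparison, Cldn1, Ocln and Cdh3 rose and F11r fell, while Cldn19, Tjp1, Cdh1, Cdh2 and Ctnnb1 were not called. The background for these 3 and 1 of 9 genes is that 16.1% of the 15428 genes tested were called higher and 19.0% lower in KO. For 4 of the 9 genes each KO library exceeded each WT library, as for 23.7% of all genes, and for 1 each was lower, as for 28.4%. The median log2 fold change of the 9 genes was 0.13, beside -0.08 for all genes tested. In the KO against Ctrl comparison 0 of 9 were called by edgeR (3 at an unadjusted p under 0.05, 2 by DESeq2), where 0% of 15287 genes were called higher and 0% lower. Over all genes, 1846 of 15287 had an unadjusted p under 0.05 by edgeR, and DESeq2 called 1191 of 23965. The median log2 fold change of the 9 genes was -0.355, beside 0.013 for all genes tested. Both KO libraries exceeded both Ctrl libraries for 1 gene, against 18.2% of all genes, and below for 4, against 22.8%. In the KO against CreCtrl comparison Cdh2 alone was called, as higher, where 3.60% of 15963 genes were called higher and 12.2% lower. Both KO libraries exceeded both CreCtrl libraries for 6 of the 9 genes, against 34.8% of all genes, and below for 2, against 36.9%. DESeq2 called 7 of the 9 in that set, which were Cldn1, Ocln, Cdh2, Cdh3 and Ctnnb1 as higher and F11r and Cdh1 as lower. Over all 24610 genes it tested there, DESeq2 called 1643 higher and 2338 lower. The median log2 fold change of the 9 genes in that set was 0.532, beside -0.022 for all genes tested by edgeR. With 7 KO against 7 control libraries and the set as a term, Cldn1, Ocln and Cdh3 rose and F11r fell, where 18.5% of 17662 genes were called higher and 17.6% lower. The set comparisons are parts of that fit, so it shares their libraries.

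**Figure D1:**
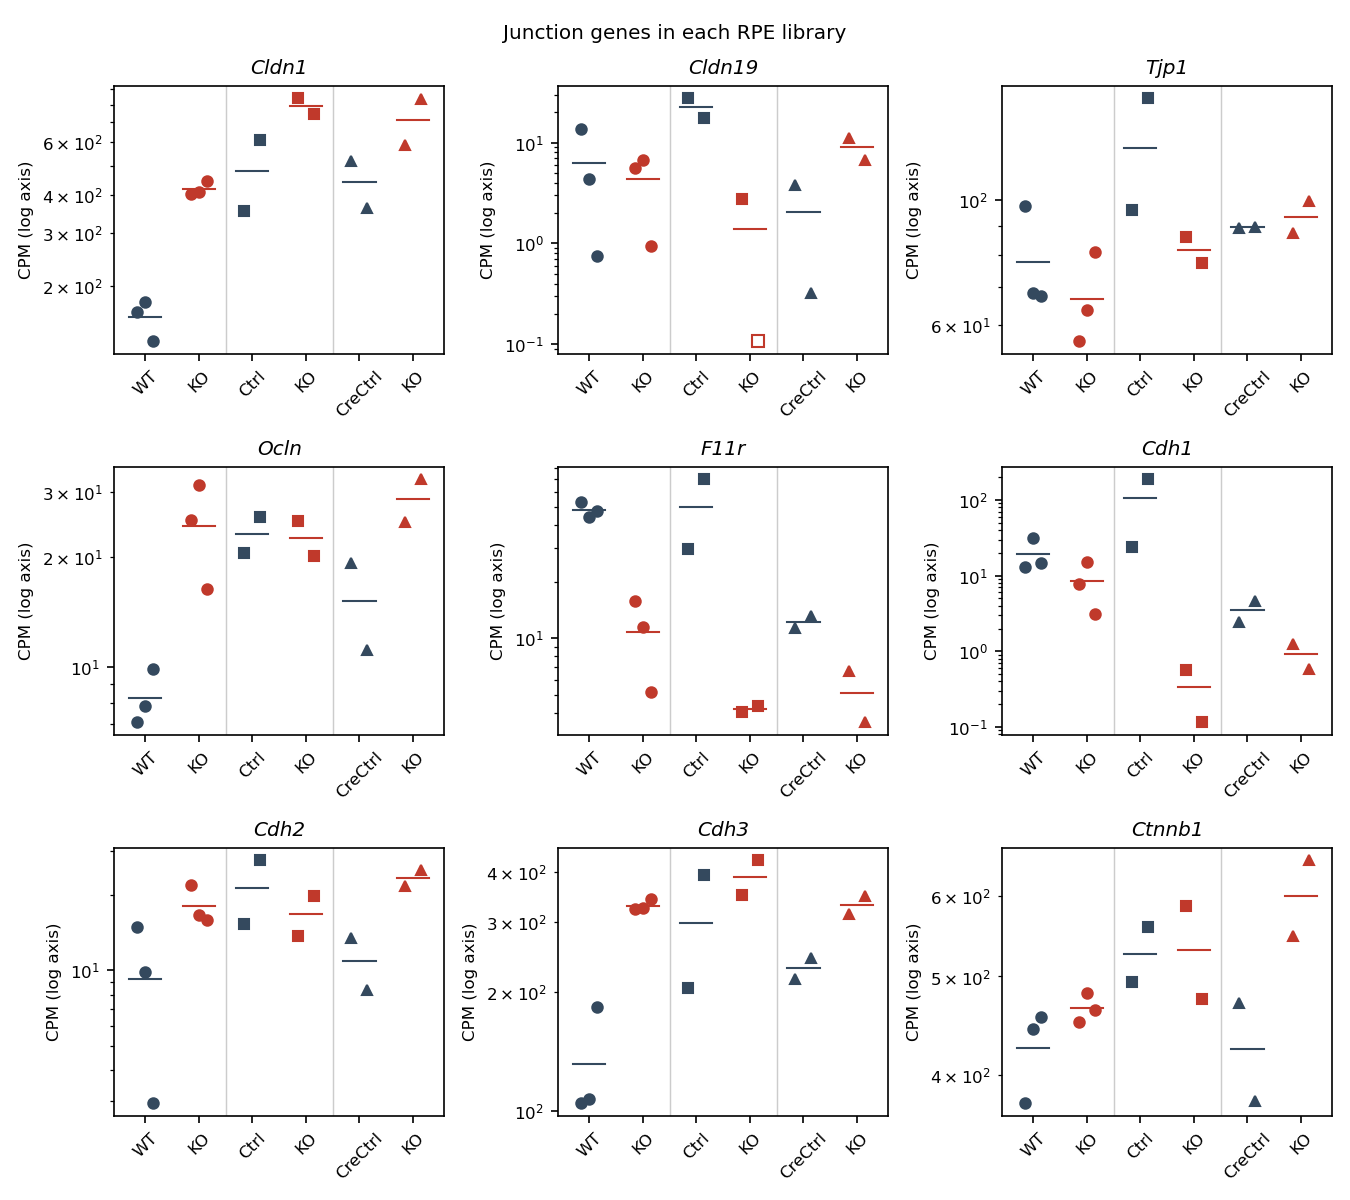
Each panel plots 1 gene in CPM (log axis) in every library, with control libraries in dark grey, KO libraries in red, circles for the WT set, squares for the Ctrl set and triangles for the CreCtrl set, and a bar at each group mean. F11r lay lower in every KO library than in every control library of its set, and Cldn19 in KO of the Ctrl set 2, at 0 counts, is drawn as an open square at the foot of its panel.

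Sequences upstream of the start are shown for the 3 tight junction genes that were called in the WT set and have an entry in the RefSeq promoter table (GRCm38.p6). Capitals mark CAGGTG, an E-box letter pattern that repressors of epithelial genes recognise, and GGGCGG, a GC box pattern, each searched on both strands (CACCTG and CCGCCC on the other). Each run is the 250 bases before the annotated start in that table, 5′ to 3′ on the gene's strand. The F11r window ends at 171437560, past the gene start at 171437535 given below, and that of Cldn1 reaches 26371840, past 26371841. Bases shortly after this F11r start were not found in an annotated transcript of the gene.

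Cldn1, chr16:26371840-26372089, minus strand: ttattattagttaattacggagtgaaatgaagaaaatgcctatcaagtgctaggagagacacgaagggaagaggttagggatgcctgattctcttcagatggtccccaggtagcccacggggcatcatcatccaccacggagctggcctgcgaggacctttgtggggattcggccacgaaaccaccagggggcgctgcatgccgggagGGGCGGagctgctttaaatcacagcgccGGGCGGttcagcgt

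Ocln, chr13:100552719-100552968, minus strand: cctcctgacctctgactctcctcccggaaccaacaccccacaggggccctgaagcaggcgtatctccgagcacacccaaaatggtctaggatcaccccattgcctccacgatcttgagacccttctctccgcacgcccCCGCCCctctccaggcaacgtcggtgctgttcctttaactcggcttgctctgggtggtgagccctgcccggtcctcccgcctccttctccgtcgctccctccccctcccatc

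F11r, chr1:171437311-171437560, plus strand: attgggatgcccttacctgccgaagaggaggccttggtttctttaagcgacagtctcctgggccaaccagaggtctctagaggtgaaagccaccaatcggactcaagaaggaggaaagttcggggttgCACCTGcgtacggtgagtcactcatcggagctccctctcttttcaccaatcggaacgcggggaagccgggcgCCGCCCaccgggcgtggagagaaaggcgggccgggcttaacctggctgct

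CAGGTG was found 1 time in the window of F11r and 0 times in those of Cldn1 and of this start of Ocln, and 17.2% of 32851 windows of the same length hold it. GGGCGG was found 2 times upstream of Cldn1 and 1 time each upstream of Ocln and F11r, and 32.7% of the windows hold it. The E-box CACGTG (in 6.02% of all windows), the M-box CATGTG (12.3%) and the homeodomain pattern TAATCC (6.25%) were searched in the same way and had no match in these 3 windows. Ocln has a second annotated start, and the 250 bases before it (chr13:100552499-100552748, minus strand, overlapping the window shown) hold CAGGTG 2 times and GGGCGG 1 time. The table also holds Tjp1, Cldn19 and Ctnnb1, and Cdh1, Cdh2 and Cdh3 are the other members.

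Among the tight junction membrane proteins, Cldn1 (ENSMUSG00000022512, chr16:26356642-26371841, minus strand, GRCm38, 4 exon blocks), a barrier-forming claudin, was counted at 163, 177 and 131 CPM in the 3 WT libraries and at 404, 409 and 446 CPM in the KO libraries of that set. All KO libraries were higher than all WT libraries, and the groups were 157 ± 23.9 and 420 ± 22.9 CPM (SD, n = 3 each). The log2 fold change was 1.42 (SE 0.14, adjusted p = 0.000165 by edgeR). The Ctrl set had Cldn1 at 355 and 610 CPM in Ctrl and 841 and 742 CPM in KO, which did not overlap (log2 fold change 0.71, SE 0.33, adjusted p = 0.513). In the CreCtrl set it was 522 and 364 CPM in CreCtrl and 587 and 835 CPM in KO, also without overlap (0.68, SE 0.26, adjusted p = 0.1). All 7 KO libraries were thus above the controls of their own set, although the WT libraries were lower than the other controls. In the WT, Ctrl and CreCtrl sets taken singly, 23.7%, 18.2% and 34.8% of all genes tested lay higher in this way. Over the 7 and 7 libraries the log2 fold change was 1.07 (SE 0.19, adjusted p = 0.000964).

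Ocln (ENSMUSG00000021638, chr13:100496507-100552718, minus strand, 10 exon blocks), the tetraspan protein occludin of tight junction strands, was 7.06, 7.82 and 9.89 CPM in WT and 25.2, 31.3 and 16.3 CPM in KO. The groups did not overlap, and KO 3 was nearest to WT. The log2 fold change was 1.55 (SE 0.31, adjusted p = 0.00513 by edgeR). Against Ctrl, the values were 20.5 and 25.7 CPM in Ctrl and 25.0 and 20.1 CPM in KO, which overlapped (-0.04, SE 0.28, adjusted p = 0.988). Against CreCtrl, they were 19.2 and 11.1 CPM in CreCtrl and 24.8 and 32.5 CPM in KO, without overlap (0.91, SE 0.29, adjusted p = 0.0659). Per exon length and scaled over all libraries, the 7 KO libraries lay between 3.86 and 7.72 RPKM, and the 3 WT libraries, at 1.56 to 2.13 RPKM, were the lowest controls. Over all 14 libraries the log2 fold change was 0.99 (SE 0.27, adjusted p = 0.0107).

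F11r (ENSMUSG00000038235, chr1:171437535-171464603, plus strand, 9 exon blocks), the immunoglobulin-like adhesion molecule JAM-A of epithelial and endothelial tight junctions, was 53.0, 43.8 and 47.2 CPM in WT and 15.7, 11.5 and 5.15 CPM in KO. The groups were 48.0 ± 4.66 and 10.8 ± 5.33 CPM (SD, n = 3 each) and did not overlap. The log2 fold change was -2.15 (SE 0.36, adjusted p = 0.00213 by edgeR), so that WT had 4.44 times the KO level. F11r in the Ctrl set was 29.9 and 70.0 CPM in Ctrl and 4.07 and 4.37 CPM in KO (-3.56, SE 0.49, adjusted p = 0.106, and -2.82 without Ctrl 2, adjusted p = 0.0935, and -4.04 without Ctrl 1, adjusted p = 0.00451). With CreCtrl as the control it was 11.4 and 13.1 CPM in CreCtrl and 6.69 and 3.57 CPM in KO (-1.25, SE 0.34, adjusted p = 0.0501). F11r was the one gene of the 9 that lay lower in all KO libraries than in all controls of each set. In the WT, Ctrl and CreCtrl sets taken singly, 28.4%, 22.8% and 36.9% of all genes tested lay lower in this way. The share that did so in every set was not counted. Over 14 libraries the log2 fold change was -2.21 (SE 0.36, adjusted p = 0.000685), and without the Ctrl set, a choice made after seeing the data, it was -1.73 (adjusted p = 0.000949). Surface epithelium marker sums overlapped between the groups in the WT and CreCtrl sets and were higher in Ctrl than in KO in the Ctrl set. Fibroblast and endothelial marker sums were lower in KO in every set. The part of any of these cells in the F11r difference was not tested.

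Cldn19 (ENSMUSG00000066058, chr4:119255414-119262438, plus strand, 4 exon blocks), a claudin of RPE and kidney tight junctions, was 13.8, 4.38 and 0.75 CPM in WT and 5.56, 6.70 and 0.94 CPM in KO, which overlapped (log2 fold change -0.52, SE 1.01, adjusted p = 0.746). The Ctrl set gave 27.6 and 17.6 CPM in Ctrl and 2.76 CPM and 0 in KO (-4.04, SE 1.42, adjusted p = 0.321). The 0 counts in KO of the Ctrl set 2 allow up to 0.166 CPM, at a floor of 3 counts. The order was the opposite in the CreCtrl set, with 3.80 and 0.32 CPM in CreCtrl and 11.1 and 6.79 CPM in KO (2.07, SE 0.83, adjusted p = 0.115). Cldn19 shares exon sequence with Gm12927 on the other strand, and whether counting used the strand is not given in the sources used here, so reads of the pair cannot be told apart.

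The scaffold Tjp1 (ENSMUSG00000030516, chr7:65296165-65527781, minus strand, 31 exon blocks) was 97.4, 68.4 and 67.5 CPM in WT and 56.2, 63.8 and 80.8 CPM in KO, with overlap (log2 fold change -0.22, SE 0.19, adjusted p = 0.445). Ctrl 2 was highest at 151 CPM, beside 96.0 CPM in Ctrl 1 and 85.9 and 77.3 CPM in KO (-0.60, SE 0.29, adjusted p = 0.534). The CreCtrl set had 89.2 and 89.6 CPM in CreCtrl and 87.3 and 99.5 CPM in KO (0.06, SE 0.15, adjusted p = 0.778). No comparison called Tjp1, and outside Ctrl 2 its levels spanned 56.2 to 99.5 CPM.

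Of the adherens junction genes, Cdh3 (ENSMUSG00000061048, chr8:106510891-106557297, plus strand, 16 exon blocks) was 104, 107 and 183 CPM in WT and 323, 324 and 342 CPM in KO. All KO libraries were higher, by a log2 fold change of 1.33 (SE 0.22, adjusted p = 0.00178 by edgeR). Cdh3 in the Ctrl set was 204 and 393 CPM in Ctrl and 350 and 429 CPM in KO, with overlap (0.38, SE 0.37, adjusted p = 0.846). Cdh3 in the CreCtrl set was 215 and 244 CPM in CreCtrl and 314 and 349 CPM in KO, without overlap (0.53, SE 0.17, adjusted p = 0.0706). Over 14 libraries the log2 fold change was 0.90 (SE 0.21, adjusted p = 0.00455).

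Cdh1 (ENSMUSG00000000303, chr8:106603351-106670246, plus strand, 16 exon blocks), the neighbour of Cdh3 on the chromosome, had a different pattern. It was 12.9, 31.0 and 14.5 CPM in WT and 7.70, 14.96 and 3.14 CPM in KO, which overlapped (log2 fold change -1.18, SE 0.57, adjusted p = 0.151). In the Ctrl set it was 23.6 and 188 CPM in Ctrl, from 370 and 5284 reads, and 0.56 and 0.12 CPM in KO, from 9 and 2 reads. The log2 fold change of -8.29 (SE 1.37) was not called by edgeR (adjusted p = 0.11), although DESeq2 called it (adjusted p = 1.08e-05). It was -6.11 without Ctrl 2 (adjusted p = 0.0948) and -9.11 without Ctrl 1, where edgeR called it (adjusted p = 0.00242). Cdh1 in the CreCtrl set was 2.44 and 4.67 CPM in CreCtrl and 1.23 and 0.59 CPM in KO, without overlap (-1.96, SE 0.57, adjusted p = 0.0574). Ctrl 2 had both the highest Cdh1 and the highest surface epithelium markers, with Krt5 at 4849 CPM and Krt12 at 3800 CPM. WT 2 and Ctrl 1, next highest in Cdh1, were also next highest in these markers, at summed levels of 1180 and 2320 CPM. WT 1 and WT 3, at 12.9 and 14.5 CPM of Cdh1, had sums of only 37.9 and 16.6 CPM. The part of these cells in the Cdh1 difference was not tested.

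**Figure D2:**
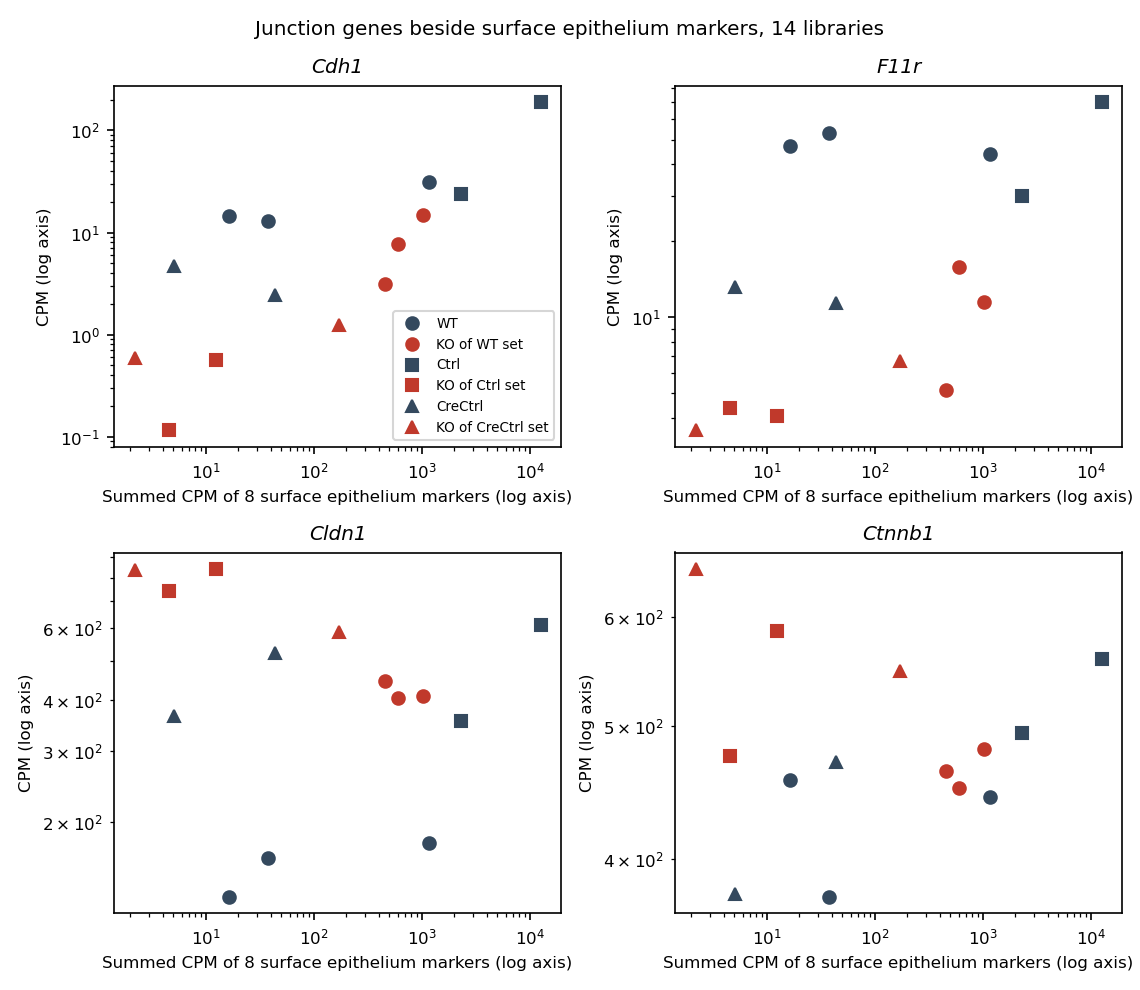
Each panel plots 1 gene in CPM against the summed CPM of 8 surface epithelium markers, both on log axes, with 1 point per library and colours and shapes for the groups. Ctrl 2, at 12700 CPM of markers, was highest for Cdh1 and F11r, and Cldn1 and Ctnnb1 show no such order. In the WT set marker sums overlapped between WT and KO, and F11r values did not. The part of these cells in the values was not tested.

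Cdh2 (ENSMUSG00000024304, chr18:16588877-16809246, minus strand, 17 exon blocks), the cadherin of neural and mesenchymal cells that RPE also makes, was 14.9, 9.87 and 2.94 CPM in WT and 21.9, 16.6 and 15.9 CPM in KO. The KO libraries were all higher, and WT 3 was far below the others (log2 fold change 0.97, SE 0.51, adjusted p = 0.185). Cdh2 in the Ctrl set was 15.3 and 27.6 CPM in Ctrl and 13.7 and 19.8 CPM in KO, with overlap (-0.35, SE 0.39, adjusted p = 0.873). In the CreCtrl set Cdh2 rose, from 13.4 and 8.39 CPM in CreCtrl to 21.7 and 25.2 CPM in KO (1.10, SE 0.26, adjusted p = 0.0368 by edgeR). That call was lost without CreCtrl 2 (0.77, adjusted p = 0.0735), without KO 2 of the set (0.99, adjusted p = 0.123), by library size alone (0.88, adjusted p = 0.0506), by RPE marker scaling (0.51, adjusted p = 0.153) and in the fit of all 14 libraries (1.13, adjusted p = 0.233).

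Ctnnb1 (ENSMUSG00000006932, chr9:120929216-120960507, plus strand, 18 exon blocks), which links cadherins to alpha-catenin and is also the effector of Wnt signalling, was the most even of the abundant genes. It was 375, 444 and 457 CPM in WT and 451, 481 and 463 CPM in KO (log2 fold change 0.13, SE 0.12, adjusted p = 0.473). It was 494 and 559 CPM in Ctrl and 586 and 476 CPM in KO (0.01, SE 0.25, adjusted p = 0.994), and 471 and 377 CPM in CreCtrl and 548 and 650 CPM in KO (0.50, SE 0.20, adjusted p = 0.116). The groups overlapped in the WT and Ctrl sets and not in the CreCtrl set. Ctnnb1 shares exon sequence with Ulk4 on the other strand.

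**Figure D3:**
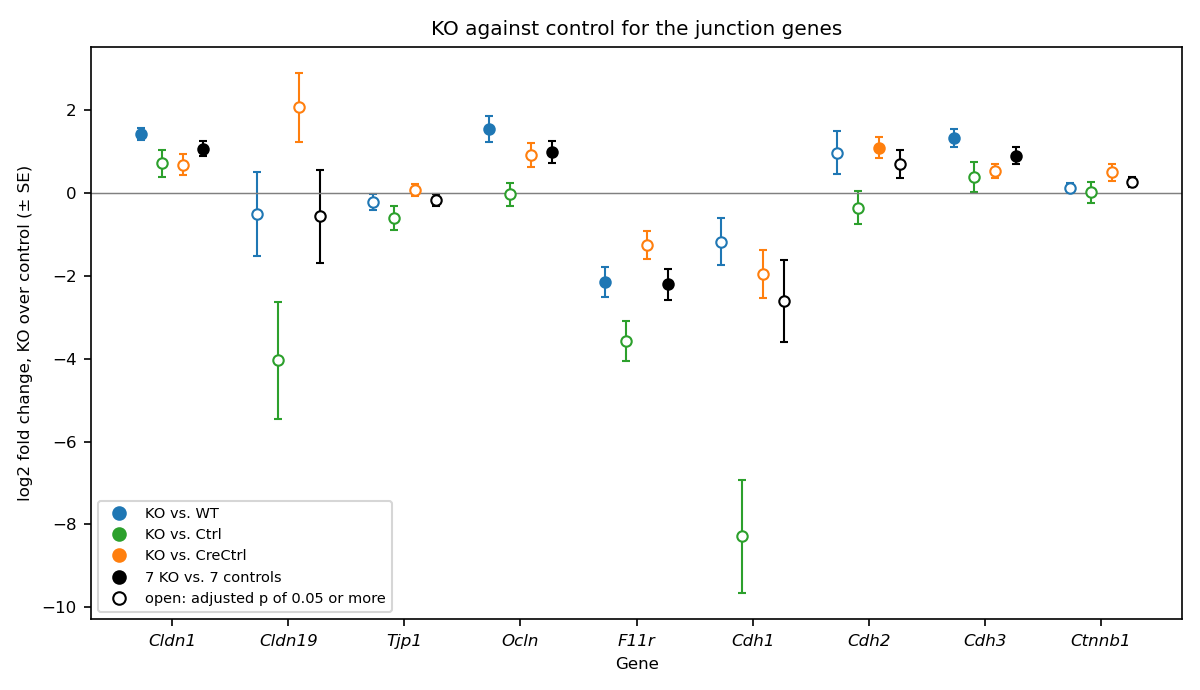
Log2 fold changes of KO over control with their SE for the 9 genes in the 3 sets and over all 14 libraries, with filled points for an adjusted p under 0.05. F11r was negative in all 4 comparisons, from -1.25 to -3.56, and Cldn1 positive, from 0.68 to 1.42, on the TMM scale.

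These directions are relative to all expressed genes. All 10 RPE markers rose in KO in the WT set, and their log2 fold changes were positive in the Ctrl and CreCtrl sets too. Scaling each library by the geometric mean of the RPE marker counts moved the median log2 fold change over all genes tested. It became -1.93 in the WT, -0.58 in the Ctrl and -0.64 in the CreCtrl set. That scale sets each transcript against this marker mean. On it, Cldn1, Ocln and Cdh3 had log2 fold changes of -0.45 (adjusted p = 0.0719), -0.28 (adjusted p = 0.458) and -0.48 (adjusted p = 0.025) in the WT set by edgeR. Their direction flipped there, while they stayed above the median of all genes. Their values were 0.077, 0.33 and -0.10 with CreCtrl as the control and 0.13, -0.63 and -0.20 with Ctrl, none of them called. Library size alone also tilted the split of all called genes, from 2490 higher and 2929 lower to 1716 and 3942 in the WT set, and from 575 and 1954 to 219 and 2757 in the CreCtrl set. On the scale of RPE markers F11r was lower in KO too, at -3.998 (adjusted p = 4.24e-05), -4.14 (adjusted p = 0.0464) and -1.86 (adjusted p = 0.0312) in the WT, Ctrl and CreCtrl sets. Ctnnb1 and Tjp1 in the WT set were -1.72 and -2.09, near the median of all genes.

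**Figure D4:**
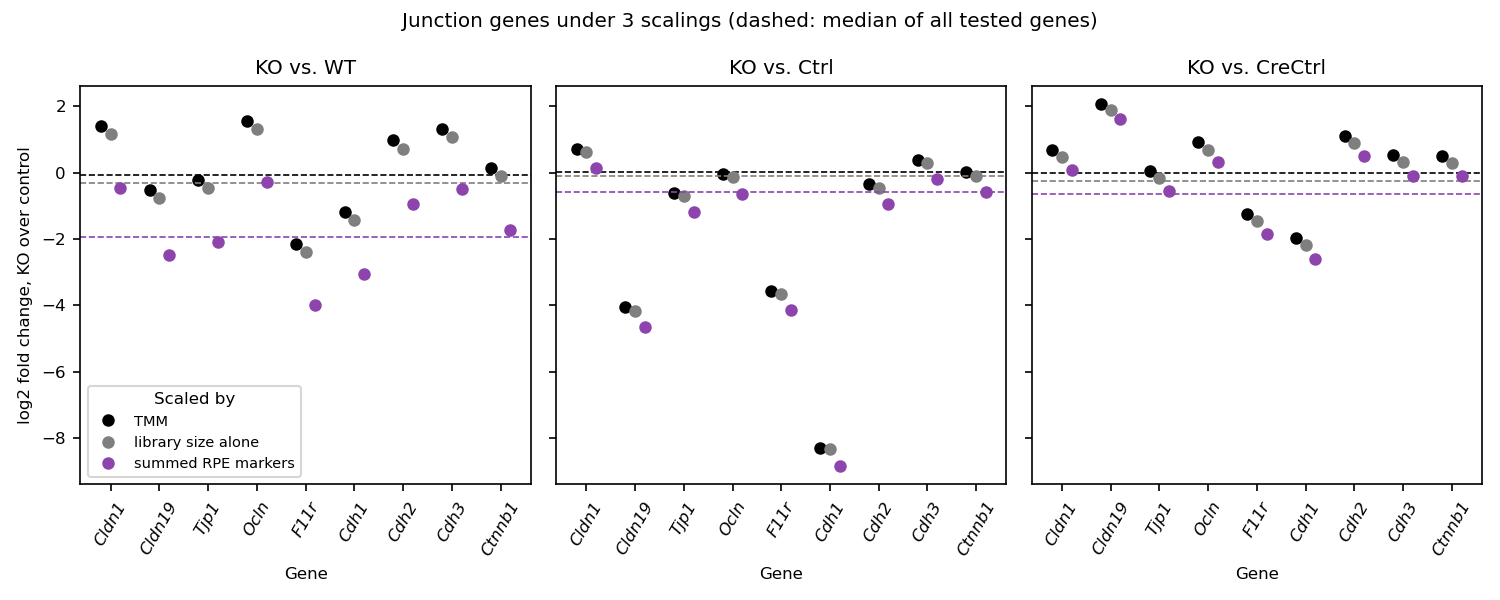
Log2 fold changes of the 9 genes in the 3 sets when libraries were scaled by TMM (black), library size alone (grey) or RPE markers (purple). Purple, labelled as summed RPE markers, used the geometric mean of the marker counts. Dashed lines mark the median of all genes tested on each scale. In the WT set Cldn1, Ocln and Cdh3 lie above 0 by TMM and below 0 by RPE markers, where they still lie above the dashed line at -1.93, and F11r and Cdh1 lie below the line of their scale in all 3 sets.

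Whether the KO effect differed between sets was tested as a difference of log2 fold changes in 1 fit of all libraries. The effect on Cdh1 was 7.26 higher on the log2 scale in the WT than in the Ctrl set (SE 1.35, adjusted p = 0.0142 by edgeR), and that on Ocln 1.74 higher (SE 0.45, adjusted p = 0.0444). These were 2 of the 9 genes, where 5.15% of 17662 genes were called. In the Ctrl set, surface epithelium markers summed to 2320 to 12700 CPM in Ctrl and 4.54 to 12.5 CPM in KO. Cdh1 in those KO libraries rested on 9 and 2 reads. The part of these cells in the Cdh1 difference between sets was not tested. Without Ctrl 2 the Cdh1 difference was 5.004 (adjusted p = 0.0594) and without KO 2 of the Ctrl set 6.53 (adjusted p = 0.0838), and it was called without each of the other 8 libraries. The Ocln call was lost in 7 of 10 fits that left out 1 library, those without WT 1, WT 2, KO 1 or KO 2 of the WT set, Ctrl 2, or either KO library of the Ctrl set, with values of 1.48 to 1.93 and adjusted p of 0.0643 to 0.214. It was also lost under RLE normalization (1.59, adjusted p = 0.0673) and library size alone (1.45, adjusted p = 0.0814). Between the WT and CreCtrl sets 0 of 9 were called by edgeR (2 at an unadjusted p under 0.05, 0 by DESeq2), against 1.49% of all genes. Between the Ctrl and CreCtrl sets 0 of 9 were called (3 at an unadjusted p under 0.05, 1 by DESeq2), against 0% of all genes. In these last 2 contrasts 2634 and 1545 of 17662 genes had an unadjusted p under 0.05 by edgeR. DESeq2 called 907 and 124 of 27247 genes in them.

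Levels of different genes were compared as CPM per kilobase of merged exons (RPKM), with CPM scaled over all 14 libraries. Cldn1 (mean 98.8, range 24.5 to 181 RPKM) and Ctnnb1 (94.3, 67.3 to 126) led, and neither was consistently above the other, with Cldn1 higher in 8 of 14 libraries. Cdh3 (64.0, 22.2 to 102) followed, below Ctnnb1 in 13 libraries, and was above Tjp1 in all 14. Tjp1 averaged 11.1 (7.31 to 20.2), F11r 8.41 (1.34 to 27.5), Cdh1 4.85 (0.026 to 43.0), Ocln 4.75 (1.56 to 7.72), Cdh2 2.04 (0.332 to 3.57) and Cldn19 1.73 RPKM (0 to 6.69). Tjp1 exceeded F11r in 10 of 14 libraries and Cdh1 exceeded Ocln in only 5, so those neighbours in the order are not separated by their spread. Of Cdh1, Cdh2 and Cdh3, Cdh3 was the most abundant in every group, by mean level. Cdh11, a cadherin outside the 9 genes, was 302 CPM in WT, where Cdh3 was 131 CPM, before scaling to length. The order changed with the group. In WT, F11r (16.6 RPKM) ranked above Tjp1 (9.18) and Ocln (1.80) without overlap, and in KO of the WT set it (4.13) lay below Tjp1 (8.69) and overlapped Ocln (5.86). In the KO libraries of the Ctrl and CreCtrl sets Cldn1 (170 and 150 RPKM) ranked above Ctnnb1 (106 and 118) without overlap, whereas in WT Ctnnb1 (75.4) was above Cldn1 (29.9).

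Across the 14 libraries the 9 genes fell into groups that varied alike. As a description, Pearson's r of log2 CPM over these libraries, which include all sets and both genotypes and share 1 normalization, was 0.857 for Cldn1 and Ocln, 0.868 for Cldn1 and Cdh3, 0.867 for Ocln and Cdh3, and 0.859 for Ocln and Ctnnb1. F11r and Cdh1 varied together (0.895) and against Cldn1 (-0.706 and -0.521). Cldn19 had at most 0.525 (with Cdh1) and Tjp1 at most 0.482 (with Cdh2) with any other member. Of 17662 genes, those most like Cldn1 were Dnajc16 (0.981), Ahcyl1 (0.979) and Stim2 (0.979), and those most like Ocln were Rraga, Tdrp and Atg12 (0.973, 0.973 and 0.971). Cdh3 was most like Myrf (0.975), Ttll1 (0.973) and Tmem63b (0.970), and Ctnnb1 most like Nus1 (0.972), Agps (0.966) and Trp53inp2 (0.965). F11r was most like Erbb2 (0.983), Capn5 (0.974) and Serpinb1a (0.966), and Cdh1 most like Epha2 (0.975), Lmo7 (0.972) and Emp2 (0.968). Cldn19 was most like Crhbp and Zic1 (0.964 and 0.963), Tjp1 like Nipbl, Zc3h12c and Cnot1 (0.930, 0.923 and 0.892), and Cdh2 like Fam204a, Lig4 and Slc7a1 (0.917, 0.915 and 0.889).

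Beyond these 9, 98 other junction genes were listed by function. In the WT set 19 of the 80 tested rose and 15 fell, where 16.1% and 19.0% of all genes did, in the Ctrl set 0 of 80 were called by edgeR (30 at an unadjusted p under 0.05, 20 by DESeq2), and in the CreCtrl set 9 of 77 rose and 9 fell, where 3.60% and 12.2% of all genes did. Their median log2 fold changes were -0.03, -0.70 and 0.20, beside -0.079, 0.013 and -0.022 for all genes tested. Against Ctrl, 41 of the 80 lay lower in both KO than in both Ctrl libraries and 4 higher, as did 22.8% and 18.2% of all genes. Of all genes, 1846 of 15287 had an unadjusted p under 0.05 by edgeR there, and DESeq2 called 1191 of 23965. Of the 18 other claudins, 12, 10 and 11 were tested, and 3 rose and 1 fell in the WT set, 0 were called in the Ctrl set (5 at an unadjusted p under 0.05) and 2 fell in the CreCtrl set. By the mean over 14 libraries the most abundant were Cldn4 (28.2 RPKM), Cldn2 (23.3 RPKM) and Cldn12 (13.6 RPKM), but Cldn4 was above Cldn2 in the Ctrl group alone. Cldn2, a pore-forming claudin, rose from 30.3 ± 13.7 CPM in WT to 82.6 ± 8.90 CPM in KO (SD, n = 3; log2 fold change 1.45, adjusted p = 0.00513 by edgeR), and Cldn10, also a channel-forming claudin, from 3.28 ± 0.753 to 13.9 ± 4.32 CPM (2.08, adjusted p = 0.00483). Cldn12 rose by 0.59 on the log2 scale in the WT set (adjusted p = 0.0276). Cldn11, the claudin of myelin and Sertoli cells, fell in the WT set (-3.88, adjusted p = 0.0212) and in the CreCtrl set (-3.76, adjusted p = 0.0303). Cldn5, the claudin of endothelium, fell in the CreCtrl set (-2.53, adjusted p = 0.0499 by edgeR). There 8 of 10 endothelial markers also fell, and their part in the Cldn5 value was not tested. Cldn4 was 302 ± 339 CPM in Ctrl (SD, n = 2), where Cldn2 was 97.9 ± 0.342 CPM, and its group means were between 0.128 and 23.4 CPM in the other 5 groups.

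Of 10 other tight junction membrane proteins, 9, 9 and 8 were tested; 3 rose and 1 fell in the WT set, 0 were called in the Ctrl set (2 at an unadjusted p under 0.05) and 3 rose in the CreCtrl set. Cxadr, the coxsackievirus and adenovirus receptor, rose from 15.3 ± 2.84 to 59.1 ± 4.13 CPM in the WT set (SD, n = 3; 1.95, adjusted p = 0.000143 by edgeR) and from 48.7 ± 6.75 to 90.8 ± 25.7 CPM in the CreCtrl set (SD, n = 2; 0.90, adjusted p = 0.0393). Ildr2, an angulin of tricellular junctions, rose in both sets (1.08, adjusted p = 0.000693, and 0.84, adjusted p = 0.0419). Lsr, the angulin lipolysis-stimulated receptor, rose in the WT set (1.30, adjusted p = 0.00478), and Jam3 (JAM-C) in the CreCtrl set (0.83, adjusted p = 0.0266). Against Ctrl the log2 fold changes of Cxadr, Ildr2 and Lsr were -0.13, 0.09 and -0.20. Exons of Cxadr, Ildr2 and Lsr overlap counted genes on the other strand, as do those of Ctnna1, Vcl and Dsp, named below.

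Of 26 tight junction scaffolds and polarity proteins, 7 rose and 5 fell in the WT set (26 tested), 0 of 25 were called in the Ctrl set (5 at an unadjusted p under 0.05), and 4 rose and 2 fell in the CreCtrl set. Ybx3 (52.8 RPKM) and Amotl2 (37.3 RPKM), an angiomotin-like scaffold, were the most abundant and were not called in any set (adjusted p = 0.514 and 0.252 in the WT set by edgeR). The polarity genes Pard6b (1.63, adjusted p = 0.00101, and 0.72, adjusted p = 0.0457) and Mpp5 (PALS1; 0.97, adjusted p = 0.00305, and 0.80, adjusted p = 0.0212) rose in the WT and CreCtrl sets. The scaffold Magi1 fell from 87.9 ± 9.59 to 14.2 ± 0.87 CPM in the WT set (SD, n = 3; -2.63, adjusted p = 2.36e-05) and from 33.5 ± 6.18 to 10.2 ± 0.474 CPM in the CreCtrl set (SD, n = 2; -1.72, adjusted p = 0.00582). Cgnl1 (paracingulin) fell in the WT set (-1.76, adjusted p = 4.16e-05). Crb1 fell in the CreCtrl set (-2.42, adjusted p = 0.0478 by edgeR), from 5.3 to 21.4 CPM in CreCtrl to 1.77 to 3.18 CPM in KO. There 10 of 10 rod markers fell too, and their part in the Crb1 value was not tested.

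Of 7 other cadherins, 4, 5 and 4 were tested, and 3 fell in the WT and 3 in the CreCtrl set, the same 3 in both: Cdh11 (osteoblast cadherin; -3.59, adjusted p = 0.000393, and -2.48, adjusted p = 0.0126 by edgeR), Cdh5 (the cadherin of endothelium; -3.07, adjusted p = 0.000789, and -2.81, adjusted p = 0.00489) and Cdh13 (T-cadherin; -3.71, adjusted p = 0.0321, and -3.86, adjusted p = 0.0203). None was called in the Ctrl set (2 at an unadjusted p under 0.05), where their values were -2.27, -2.49 and -3.15. Cdh4 (6.87 RPKM), R-cadherin, had 0.63 and 0.41 and was not called. Fibroblast and endothelial markers were lower in KO in the same sets, and their part in these cadherin values was not tested.

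Of 16 catenins, nectins and adaptors, 14, 15 and 14 were tested; 2 rose and 4 fell in the WT set, 0 were called in the Ctrl set (6 at an unadjusted p under 0.05), and 1 rose and 2 fell in the CreCtrl set. Ctnna1 (alpha-catenin, 95.0 RPKM), the most abundant, rose in the WT set from 436 ± 35.0 to 714 ± 28.2 CPM (SD, n = 3; 0.71, adjusted p = 0.00206 by edgeR). Jup (plakoglobin) fell in the WT set (-1.12, adjusted p = 0.0213) and the CreCtrl set (-1.08, adjusted p = 0.0143), and so did Vezt (vezatin; -1.41, adjusted p = 0.00364, and -0.85, adjusted p = 0.0314). Vcl (vinculin) fell in the WT set (-1.03, adjusted p = 0.00106). Pkp4 (16.2 RPKM) rose in the CreCtrl set (0.58, adjusted p = 0.0467), and Nectin1 (19.1 RPKM) was not called.

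All 10 desmosome genes were tested. In the WT set 3 rose and 0 fell (3 at an unadjusted p under 0.05), and in the CreCtrl set 1 rose. In the Ctrl set 0 were called by edgeR (8 at an unadjusted p under 0.05), although all 10 lay lower in both KO than in both Ctrl libraries, as did 22.8% of all genes tested. Perp (143 RPKM) rose in the WT set (1.21, adjusted p = 0.000604), and so did Pkp2 (1.08, adjusted p = 0.0143). Dsp (desmoplakin) rose from 28.7 ± 18.7 to 88.8 ± 23.2 CPM (SD, n = 3; 1.63, adjusted p = 0.0153 by edgeR) in the WT set and from 42.8 ± 20.5 to 129 ± 32 CPM in the CreCtrl set (SD, n = 2; 1.59, adjusted p = 0.0261). In the Ctrl set Dsp was 626 ± 660 CPM in Ctrl and 63.9 ± 41.4 CPM in KO (SD, n = 2). Pkp1 was 220 ± 240 CPM in Ctrl and 0 in both KO libraries of that set. These values lie beside the surface epithelium markers of those Ctrl libraries, whose part in them was not tested. Of 11 connexins, 5, 6 and 4 were tested; Gja1 (connexin 43, 39.7 RPKM) rose in the WT set from 122 ± 42.4 to 386 ± 42.4 CPM (SD, n = 3; 1.66, adjusted p = 0.000853), and Gjc1 (connexin 45) fell (-1.11, adjusted p = 0.0399). No connexin was called in the Ctrl or CreCtrl set (2 and 1 at an unadjusted p under 0.05). Gjb2 (6.56 RPKM) was 90.1 ± 107 CPM in Ctrl and at most 10 CPM in the libraries of the other 5 groups.

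On the scale of RPE markers the direction of Cldn2, Lsr, Ildr2, Pard6b, Dsp, Perp, Pkp2 and Gja1 in the WT set flipped. So did that of Pkp4 in the CreCtrl set. Only genes named for a change in a set were looked at on this scale in that set. Cldn12, Mpp5 and Ctnna1 in the WT set and Pard6b in the CreCtrl set, reported above as rising, were not among them.

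**Figure D5:**
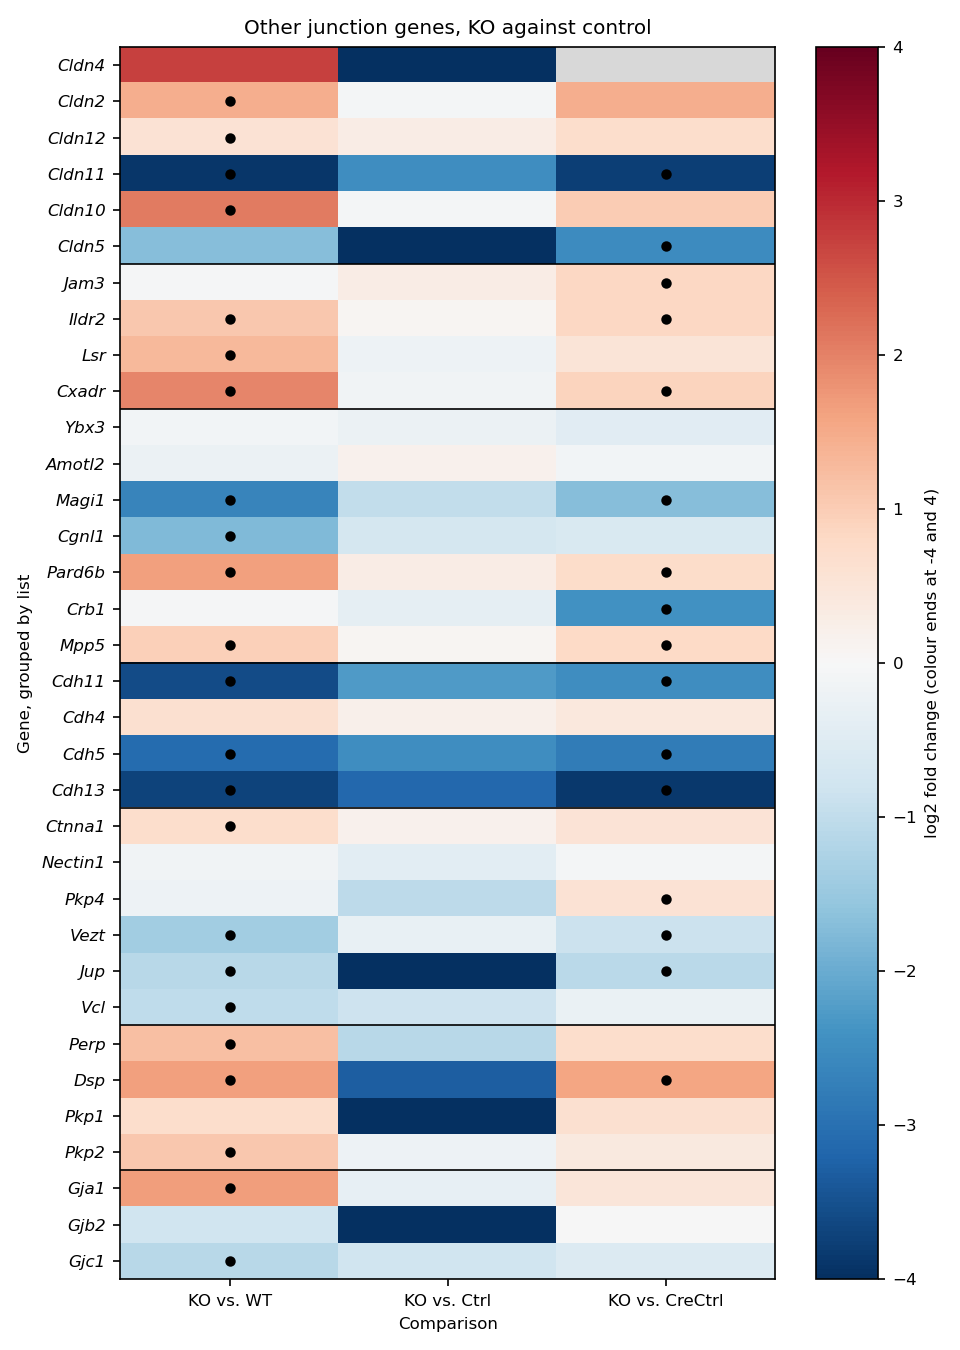
Log2 fold changes of KO over control on the TMM scale for 34 other junction genes chosen by level or change, in rows grouped by list and columns for the 3 sets, with red for higher and blue for lower in KO, grey for not tested and a dot for an adjusted p under 0.05. Magi1, Cdh11, Cdh5 and Cdh13 are blue in all 3 columns, and Dsp is red in the WT and CreCtrl sets and blue in the Ctrl set.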

How the data were processed

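Raw gene counts were deposited by the authors as 1 table with a column for each of the 14 libraries (stranded mRNA kit, paired-end reads) and were not normalized. The submitters' processing notes name bcl2fastq 2.19, STAR 2.5.2, HTSeq 0.11.2, Cufflinks 2.1.1 and GRCm38. The strand setting and annotation release of the counting are not given in the sources used here. Gene names, positions and merged exon lengths were taken from GENCODE M21 (GRCm38), which held 42250 of the 42687 genes.

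Groups, and the set of each KO library, were taken from the sample titles. Within each set, KO and control libraries were compared in edgeR (glmQLFit and glmQLFTest, the quasi-likelihood test, TMM, filterByExpr, Benjamini-Hochberg adjustment over all genes tested, threshold 0.05), and over 7 KO and 7 control libraries with the set as a term. Differences of KO effects between sets were contrasts of 1 fit of all libraries. RPKM are CPM per kilobase of merged exons. Log2 CPM for likeness used a prior count of 2. Named genes were the 9 members, the 3 genes of each of 7 junction lists with the highest mean RPKM, up to 3 called genes per list and set with the largest change and no overlap of groups, and the 3 genes most like each member. Of the genes this rule gave, 2 are not reported here. The members and lists were chosen with earlier results of these data known. Alternatives were DESeq2, RLE normalization, library size alone, and scaling by the geometric mean of the RPE marker counts. Others were at least 10 counts in every library, at least 1 count in any, a replicate block, a fit of all 14 libraries, and leaving out each library. The p-values set the difference between groups against the spread between mice, which was estimated with information shared across all genes. Each library came from its own mouse, so differences between mice and between preparations cannot be told apart. An exact two-sided permutation test cannot go below 0.1 for 3 against 3 or 0.333 for 2 against 2. The scripts were tested on simulated data. In the 10 pairs of libraries of the same group, none agreed within sampling noise. Intervals from floors cover counting error only. Versions were R 4.3.3, edgeR 4.0.16, DESeq2 1.42.0, Python 3.11.15 and pandas 2.3.3.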

Additional observations from a re-analysis of the deposited data

Results flagged for a closer look

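The KO effect on Cdh1 differed between the WT and Ctrl sets by 7.26 on the log2 scale (adjusted p = 0.0142 by edgeR), with the KO level below the control level in both. Cdh1 in KO of the Ctrl set rested on 9 and 2 reads. Surface epithelium markers there summed to 2320 to 12700 CPM in Ctrl and 4.54 to 12.5 CPM in KO. Their part in the Cdh1 difference was not tested. The KO effect on Ocln differed between the same sets by 1.74 on the log2 scale (adjusted p = 0.0444 by edgeR), with 3 of 3 KO libraries above all WT libraries and overlapping groups in the Ctrl set. That call was lost in 7 of 10 fits without 1 library, under RLE normalization (adjusted p = 0.0673) and by library size alone (adjusted p = 0.0814), and the call of Cdh1 was lost without Ctrl 2 (5.004, adjusted p = 0.0594) and without KO 2 of the Ctrl set (6.53, adjusted p = 0.0838). Control genotype and set cannot be told apart in either.

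Among the 7 KO libraries, KO 2 of the Ctrl set stood apart from the others in Cdh3, at 446 CPM (scaled over 14 libraries) against 326 to 364 CPM in the other 6. Of the 9 genes this was the only one with such a gap by Dixon's test, which flags about 1 group in 20 by chance.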

How the results depend on the processing

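In the WT set the 4 calls (Cldn1, Ocln, Cdh3, F11r) were kept without each library in turn (4 to 4). Leaving out each library gave 0 to 2 calls in the Ctrl set (2 without Ctrl 1), 0 to 7 in the CreCtrl set (7 without CreCtrl 1, 4 without KO 1, 0 without CreCtrl 2 or KO 2), 4 to 6 over 14 libraries and 0 to 4 for the difference between the WT and Ctrl sets (0 without Ctrl 2 or KO 2 of the Ctrl set, chosen after seeing the data). For the 98 other junction genes the ranges were 28 to 32, 0 to 18, 9 to 31, 27 to 34 and 1 to 31. In the Ctrl set DESeq2 called 2 members and 20 other junction genes, a minimum of 1 count in any library 3 and 31, RPE marker scaling 1 and 3, and the fit of all 14 libraries 2 and 16, against 0 and 0. In the CreCtrl set DESeq2 called 7 members, at least 10 counts in every library 3, RPE marker scaling 2, at least 1 count in any library 6 and the fit of all 14 libraries 0, against 1, and the last 2 called 30 and 7 other junction genes, against 18. RPE marker scaling called 56 of 80 other junction genes in the WT set and 63 of 87 over 14 libraries, all lower in KO, against 34 and 35. Of all genes tested, that scaling called 12252 of 15428 lower in the WT set and 13010 of 17662 over 14 libraries. For the difference between the WT and Ctrl sets, RLE normalization, library size alone and at least 10 counts each left 1 member, and library size left 12 other junction genes, against 21. Between the WT and CreCtrl sets DESeq2, library size and at least 10 counts called 5, 1 and 2 other junction genes, and between the Ctrl and CreCtrl sets DESeq2 called 1 member and 8 other junction genes, against 0 in each. Calls over all genes tested also moved with the setting and with the library left out. Against Ctrl, at least 1 count in any library called 1658 of 23965, RPE marker scaling 241 of 15287 and the fit of all 14 libraries 648 of 17662. Against CreCtrl the same settings called 4793 of 24610, 4520 of 15963 and 704 of 17662, and at least 10 counts in every library 2211 of 13895. Between the WT and Ctrl sets RLE normalization called 596 and library size alone 548 of 17662. The cause of these differences was not tested.

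The main tests did not use replicate numbers as pairs. The correlation of deviations for equal numbers was -0.0156, 0.0445 and 0.13 for WT, 0.000687 for Ctrl and 0.13 for CreCtrl. For unequal numbers it was -0.114 to 0.0618 for WT. With 2 libraries per group, unequal numbers give the same value with the sign turned. The Ctrl and CreCtrl sets therefore cannot show whether the numbers pair the libraries. With the replicate block 5 members were called against WT, 0 against Ctrl and 5 against CreCtrl, and 4 other junction genes against Ctrl.

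By RPE marker scaling the sign turned in the WT set for Cldn1 (-0.45), Ocln (-0.28), Cdh2 (-0.95), Cdh3 (-0.48), Ctnnb1 (-1.72), Cldn2 (-0.46), Lsr (-0.60), Ildr2 (-0.79), Pard6b (-0.19), Dsp (-0.27), Perp (-0.64), Pkp2 (-0.78) and Gja1 (-0.21), in the Ctrl set for Cdh3 (-0.20) and Ctnnb1 (-0.58), in the CreCtrl set for Tjp1 (-0.56), Cdh3 (-0.10), Ctnnb1 (-0.11) and Pkp4 (-0.016), and over 14 libraries for Cldn1 (-0.14), Ocln (-0.21), Cdh2 (-0.53), Cdh3 (-0.29) and Ctnnb1 (-0.93). By library size alone it turned for Ctnnb1 in the WT (-0.11) and Ctrl sets (-0.10) and in their difference (-0.014), and for Tjp1 in the CreCtrl set (-0.16). Ctnnb1 in the Ctrl set was -0.025 with at least 10 counts and -0.0012 with at least 1. Leaving out each library in turn moved uncalled values across 0 for Cldn19 against WT (-1.04 to 0.79, and 0.037 without KO 3) and over 14 libraries (-1.13 to 0.11, and 0.032 without KO 2 of the Ctrl set), for Ocln (-0.21 to 0.14, and 0.12 without KO 2), Cdh2 (-0.71 to 0.13), Cdh3 (-0.0071 to 0.94) and Ctnnb1 (-0.15 to 0.16, and -0.069 without Ctrl 1) against Ctrl, and for Tjp1 against CreCtrl (-0.027 to 0.18). Cldn19 over 14 libraries was 0.56 without the Ctrl set.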
